A study of Mus musculus with 14 samples.

Results

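Mature oligodendrocytes are known for a set of genes beyond the myelin proteins, of which 10 were followed, namely Ptgds, Apod, Il33, Klk6, S100b, Car2, Qdpr, Aspa, Cryab and Grb14. They were chosen by name, as the rows with these symbols, with earlier results of these data known. All 10 were present among the 33006 genes of a read count table of sorted oligodendrocytes. They were also among the 24846 genes kept in unique molecular identifier (UMI) tables of nucleus accumbens cells. All samples came from male C57BL/6 mice that received morphine sulfate or, as mock, saline, injected into the peritoneum. The dose and the time of collection are not given in the sources used here. The sorted set held oligodendrocytes taken by flow sorting of immunostained, papain-dissociated cells from the brains of 3 morphine and 3 mock mice of 70 days. The accumbens set held 4 morphine and 4 mock pools of 2 mice each, profiled by Drop-seq, in which single cells meet barcoded beads in droplets. In both treatments, pools 1 and 2 came from mice of 37 to 45 days and pools 3 and 4 from mice of 78 to 82 days.

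Oligodendrocytes wrap axons in myelin, and the mature cells also release proteins and run metabolic reactions that neurons and vessels depend on. Ptgds makes prostaglandin D2 and is itself secreted as a lipocalin, and Apod is a secreted lipocalin that carries small lipids. Il33 is a nuclear cytokine released when cells are damaged, Klk6 a secreted protease, and S100b a calcium-binding protein. Car2 interconverts carbon dioxide and bicarbonate, Qdpr restores tetrahydrobiopterin, the cofactor of aromatic amino acid hydroxylases, and Aspa splits N-acetylaspartate into acetate and aspartate. Cryab is a small heat shock protein, and Grb14 an adaptor that dampens the insulin receptor. Mature oligodendrocytes fall into transcript states, of which one is known by Klk6 and Hopx and another by Ptgds and Grm3.

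Reads assigned to genes numbered 14989118 to 23456702 per sorted library, with mock library 2 the shallowest. Their summed level of 15 oligodendrocyte markers was 66023 to 69359 CPM (counts scaled to library size) in morphine and 62445 to 68004 CPM in mock libraries. In the accumbens, 33218 of 36000 barcodes were kept, and marker scores that use no member placed 4158 of them among oligodendrocytes. Of the 10 genes highest by fold in these cells, 7 were oligodendrocyte markers of the gate, which the gating itself brings about. The others were Trf, Gm21984 and the member Ptgds. There were 406, 710, 450 and 525 such cells in morphine pools 1 to 4, against 234, 962, 363 and 508 in mock pools 1 to 4. Their median share of mitochondrial UMIs was 4.66% to 7.41% in morphine and 2.95% to 4.20% in mock pools, and these groups did not overlap. A fit without mitochondrial genes called 0 members in oligodendrocytes and 0 in the other classes, as did the main fits. The part of this share in the accumbens results was not otherwise tested. Morphine pool 1 held 31 of the 37 choroid plexus cells, and its oligodendrocytes carried 2641 CPM of choroid plexus markers, mostly Ttr. Any 2 pools shared 1 to 9 cell barcodes.

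The promoters of the 4 members below are shown because these genes changed in the sorted cells, the first pair upward and the second downward. Each runs from 250 bases before to 50 after the start, 5′ to 3′ on the gene's strand, and comes from RefSeq on GRCm38.p6. Capitals mark matches on either strand to any of 5 motifs. One motif was AGAACA, a half-site of the glucocorticoid receptor. Another was GAANNTTC, the core of a heat shock element. The SOX factor cores were ACAAAG or, for a second form known in this family, ACAATG as written on the top strand. The last was the TATA box, written TATAAA in this search.
Ptgds (chr2:25469700-25469999, minus strand): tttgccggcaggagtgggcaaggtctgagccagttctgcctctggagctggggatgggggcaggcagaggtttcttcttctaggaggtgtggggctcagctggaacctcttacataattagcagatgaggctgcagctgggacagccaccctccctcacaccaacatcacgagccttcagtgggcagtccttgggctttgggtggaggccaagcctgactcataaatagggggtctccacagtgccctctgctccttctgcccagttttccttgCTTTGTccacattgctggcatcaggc
Apod (chr16:31314759-31315058, minus strand): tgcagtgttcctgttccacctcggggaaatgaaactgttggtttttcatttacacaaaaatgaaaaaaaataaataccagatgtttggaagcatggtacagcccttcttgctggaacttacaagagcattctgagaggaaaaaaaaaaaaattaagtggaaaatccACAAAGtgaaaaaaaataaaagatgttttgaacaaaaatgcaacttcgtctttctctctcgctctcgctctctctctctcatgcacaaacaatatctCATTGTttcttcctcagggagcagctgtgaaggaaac
Qdpr (chr5:45450180-45450479, minus strand): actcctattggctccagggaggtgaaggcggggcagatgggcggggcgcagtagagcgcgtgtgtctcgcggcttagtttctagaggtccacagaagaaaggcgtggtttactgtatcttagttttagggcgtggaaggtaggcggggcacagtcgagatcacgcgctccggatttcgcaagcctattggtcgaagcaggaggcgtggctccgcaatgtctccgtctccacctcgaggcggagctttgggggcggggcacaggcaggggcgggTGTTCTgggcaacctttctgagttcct
Aspa (chr11:73324588-73324887, minus strand): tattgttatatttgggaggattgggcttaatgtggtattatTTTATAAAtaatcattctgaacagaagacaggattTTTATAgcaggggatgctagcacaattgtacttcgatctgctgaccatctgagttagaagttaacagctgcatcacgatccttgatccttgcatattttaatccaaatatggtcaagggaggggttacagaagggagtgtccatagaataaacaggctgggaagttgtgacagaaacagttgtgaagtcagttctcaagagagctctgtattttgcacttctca
Of the 10 members, 8 had a promoter in the table, with 10 promoters between them. The half-site was in 2 of these 10, against 19.0% of all 32851 promoters, and the heat shock core in 0, against 7.86%. ACAAAG stood in 3, against 18.7%, ACAATG in 2, against 12.6%, and the TATA box in 3, against 13.6%. The capitals in Ptgds are the reverse complement of ACAAAG, and those in Qdpr the reverse complement of AGAACA. Apod holds both SOX cores, and Aspa holds 3 TATA box matches, of which 2 overlap. These are matches of letters only. The whole windows printed for Ptgds and Aspa lie inside the longer genes of the GENCODE annotation.

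Across the accumbens, 7 of the 10 members were highest in oligodendrocytes, and the 3 others had their highest level in another class. Among 15 classes, Il33, Cryab, Car2, Klk6, Qdpr, Grb14 and Aspa led in oligodendrocytes, Apod in leptomeningeal fibroblasts, and S100b in newly formed oligodendrocytes. The mean of Ptgds was highest in fibroblasts too, but through 1 of their 4 pools, and the 3 others lay below every oligodendrocyte pool. Each member was 18.7-fold (S100b) to 118-fold (Klk6) higher in oligodendrocytes than in medium spiny neurons, the main neurons of this region. Since the members were named for mature oligodendrocytes, these levels are a description without a test. All are CPM of UMIs summed over a pool's cells of a class, as mean ± SD over pools with at least 10 such cells.

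Ptgds averaged 10519 ± 3359 CPM in oligodendrocytes (n = 8), against 1040.5 ± 495 CPM in newly formed oligodendrocytes (n = 8). The lowest oligodendrocyte pool had 5182 CPM and the highest 17079 CPM, above every pool of newly formed cells. Leptomeningeal fibroblasts were seen in 4 pools with enough cells and had 52509 and 408 CPM of Ptgds in morphine pools 2 and 3, against 1513 and 4706 CPM in mock pools 1 and 2. Morphine pool 2 sets the fibroblast mean of 14784 CPM, and the fibroblast and oligodendrocyte pools overlapped. Apod had 5258 ± 1111 CPM in oligodendrocytes (n = 8), against 49283 ± 15107 CPM in fibroblasts (n = 4), where every pool was higher. Endothelial cells came next with 507 ± 225 CPM of Apod (n = 8).

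Il33 had 569.6 ± 299.6 CPM in oligodendrocytes, followed by 315 ± 160.2 CPM in fibroblasts (n = 4) and 139.8 ± 30.2 CPM in astrocytes (n = 8). The oligodendrocyte and fibroblast pools overlapped, as did the fibroblast and astrocyte pools. Klk6 was the most restricted, with 155 ± 53.8 CPM in oligodendrocytes, 7.44 CPM in dividing progenitors on 2 UMIs, and 0 UMIs in newly formed oligodendrocytes. S100b had 1524 ± 292 CPM in newly formed oligodendrocytes (n = 8), 825 ± 113 CPM in ependymal cells (n = 7), 639.9 ± 80.5 CPM in precursors (n = 8) and 358 ± 78.2 CPM in mature oligodendrocytes (n = 8). Newly formed cells stood above ependymal cells in every pool and precursors above mature oligodendrocytes, while ependymal cells and precursors overlapped, and mature oligodendrocytes overlapped with astrocytes at 339.9 ± 65.3 CPM.

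Among the enzymes, Car2 had 3740.2 ± 803 CPM in oligodendrocytes and 647 ± 79.6 CPM in astrocytes, 5.78-fold less, with no overlap of pools. Qdpr had 1729.6 ± 252 CPM in oligodendrocytes, 12.9-fold above astrocytes, and its other classes lay close together. Aspa had 498 ± 83.4 CPM in oligodendrocytes. The next class for Aspa, perivascular macrophages, rested on 10 UMIs over all pools and had none in 2 of the 3 pools with enough cells, and astrocytes had 18.3 ± 10.7 CPM. Cryab had 2886 ± 451 CPM in oligodendrocytes, 849 ± 245 CPM in newly formed oligodendrocytes and 428 ± 62.0 CPM in mural cells (n = 8 each). Grb14 had 1206 ± 196 CPM in oligodendrocytes, 7.39-fold above precursors at 163 ± 52.2 CPM. Oligodendrocyte pools lay above every pool of the next class for Cryab, Car2, Klk6, Qdpr, Grb14 and Aspa.

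**Figure D1:**
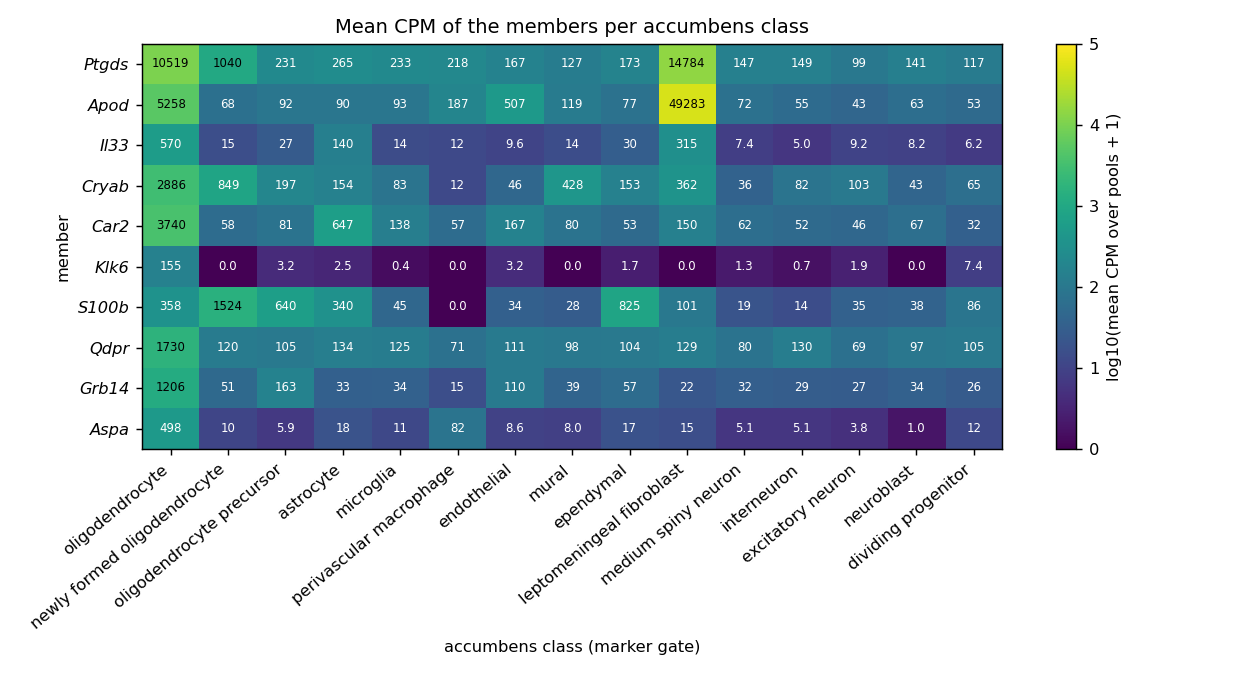
Mean CPM over pools of the 10 members (rows) in 15 accumbens classes (columns), coloured by log10 of the mean CPM plus 1, with the mean printed in each cell. The oligodendrocyte column is the highest in 7 rows, Apod is highest in leptomeningeal fibroblasts and S100b in newly formed oligodendrocytes at 1524 CPM, while the fibroblast mean of Ptgds, 14784 CPM, rests on 1 pool of 52509 CPM.

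By Pearson's r of log2 CPM over the 15 class means, the genes most like each member, leaving out members and gate markers, were Galnt6 (r = 0.89) and Fah (0.88) for Ptgds and Olfml1 (0.93) and Scd1 (0.88) for Il33. Those for Qdpr were Gm21984 (0.93) and Mobp (0.91), those for Cryab Sept4 (0.90) and S1pr5 (0.88), and those for Car2 Mobp (0.87) and Arrdc2 (0.86). Grb14 was most like Unc5b (0.89) and Slu7 (0.87), Klk6 like Slu7 (0.87) and Rnf7 (0.84), and Aspa like Fnbp1 (0.86) and Adi1 (0.84). S100b was most like Commd6 (0.93) and Tm7sf3 (0.91), which also peaked in newly formed oligodendrocytes. Apod was most like 2700046A07Rik (0.86) and Gm20442 (0.86), which peaked in fibroblasts. The class means share libraries and free RNA, so these values describe likeness only.

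Within oligodendrocytes the members were spread unevenly from cell to cell. Cells were thinned to 1000 UMIs, which left 3673 of 4158, and the variance of a member's UMIs over their mean was taken in each pool; a value near 1 is what counting alone gives. The median over pools was 12.9 for Ptgds, which had up to 104 UMIs in a thinned cell, 4.59 for Apod, 2.61 for Klk6, 2.26 for Car2, 2.13 for S100b and 1.19 for Aspa. The ratio also depends on a gene's mean level, so these values do not rank the members by unevenness. After thinning, Apod was seen in 84.4% to 94.3% of oligodendrocytes per pool, Ptgds in 70.2% to 87.4%, S100b in 14.7% to 22.9% and Klk6 in 5.70% to 10.3%. In medium spiny neurons thinned alike, Ptgds was seen in 2.94% to 22.8% of cells and Klk6 in at most 0.397%. Whether these neurons make such transcripts themselves was not tested. Before thinning, the median cell of a pool held 1747 to 2446.5 UMIs among these oligodendrocytes and 2364 to 4764.5 UMIs among these neurons.

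The 485 oligodendrocytes with a Klk6 UMI, 11.7% of 4158, carried a different mix of the other members. They had 1399 ± 263 CPM of S100b, against 173 ± 24.9 CPM in the remaining oligodendrocytes, and 11334 ± 2703 CPM of Apod, against 4158 ± 675 CPM (SD over 8 pools). The Klk6 cells had less Ptgds, 2624 ± 1514 CPM, against 11956 ± 3995 CPM in the remaining cells, and less Il33, 142 ± 64.5 CPM against 649 ± 353 CPM. Grb14 stood at 595 ± 156 CPM in Klk6 cells and at 1310.4 ± 193 CPM in the others. On the log2 scale the ratios were 3.01 for S100b, 1.45 for Apod, -1.14 for Grb14, -2.19 for Ptgds and -2.19 for Il33. Each of these 5 differences had the same direction in 8 of 8 pools.

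Smaller ratios were seen for Qdpr, at -0.48, and Cryab, at -0.27, both lower in Klk6 cells in 8 of 8 pools. Car2, at 0.20, was higher in 6 of 8 pools and Aspa, at 0.17, in 7 of 8. Of the other state genes, Hopx, Anxa5, Nkx2-9, Cd59a, Cdkn1c, Hapln2, Trf and Sec11c were higher in Klk6 cells in 8 of 8 pools. Opalin and Ctps were lower in 8 of 8. The 4 remaining state genes did not go one way in every pool. Neat1, at 0.52, was higher in Klk6 cells in 7 of 8 pools, Gng8, at 0.20, in 5, Grm3, at 0.02, in 4, and Pdlim2, at -0.06, in 3. The Klk6 cells held more UMIs than the others in every pool, with medians of 2127 to 3356 per pool against 1498 to 2170.0, and a UMI of Klk6 is seen more easily in a deep cell. Hapln2 and Opalin also belong to the gate. No test was made on these cells.

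**Figure D2:**
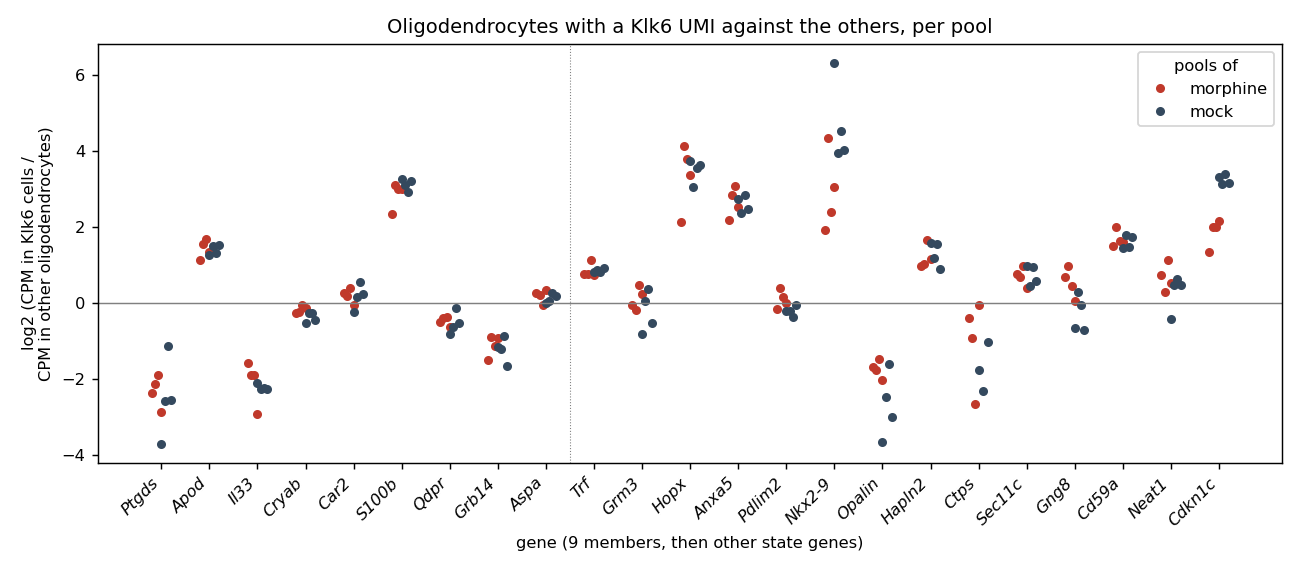
Log2 ratio of CPM in oligodendrocytes with a Klk6 UMI over CPM in the remaining oligodendrocytes, 1 point per pool, red for morphine and dark blue for mock pools, with 9 members left of the dotted line and 14 other state genes right of it. S100b and Apod lie above 0 and Ptgds, Il33 and Grb14 below 0 in all 8 pools, while Grm3, Pdlim2, Gng8 and Neat1 have points on both sides of 0.

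The first comparison asked which members differ after morphine in sorted oligodendrocytes. Ptgds, Apod and Il33 rose, Car2, Aspa, Qdpr and Cryab fell, and Klk6, S100b and Grb14 did not pass the test. In all, 3 members rose and 4 fell at an adjusted p under 0.05 in the quasi-likelihood test of edgeR. Of all 15759 genes tested, 14.8% were called in either direction. The members were chosen with earlier results of these data known, so their shares beside those of all genes are a description only. The median log2 fold change was -0.09 over the members and -0.02 over all genes. The groups did not overlap for 8 of 10 members, against 28.4% of all genes. These values are TMM-scaled CPM, and in such bulk samples fewer cells of a type and less RNA per cell cannot be told apart.

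Ptgds, at chromosome 2, 25466709 to 25470046 (GENCODE vM21 on GRCm38), had 2191, 2332 and 2165 CPM in morphine libraries, against 1518, 1296 and 1528 CPM in mock libraries. All 3 morphine libraries were above all mock libraries. The means were 2229 ± 90.1 CPM in morphine and 1447 ± 131 CPM in mock (SD, n = 3 each), a log2 fold change of 0.61 (SE 0.054, edgeR adjusted p = 2.79e-08). This rise of the prostaglandin D2 synthase held in every alternative tried, between 0.55 and 0.65.

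Markers of fibroblasts, choroid plexus cells and newly formed oligodendrocytes, classes that also held Ptgds in the accumbens, were measured in the same libraries. The summed CPM of 10 fibroblast markers was 21.2 to 28.2 in morphine and 24.4 to 30.8 in mock libraries, and 0 of the 9 tested were called (median log2 -0.20). The 8 choroid plexus markers summed to 263 to 720.3 CPM in morphine and 603 to 682 CPM in mock libraries, nearly all Ttr, and 1 of 8 fell and none rose (median log2 -0.40). No marker of these lists was at 0 in every library. The 7 markers of newly formed oligodendrocytes in the table, of 8 listed, summed to 443 to 463 CPM in morphine and 425 to 515 CPM in mock libraries, where 1 rose and 2 fell (median log2 -0.19). The part of these cells in the Ptgds difference was not tested.

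Apod, at chromosome 16, 31296192 to 31314808, had 855, 949 and 838 CPM in morphine libraries, against 779, 623 and 746 CPM in mock libraries. The groups did not overlap, and mock library 2 was the lowest. Apod rose by log2 0.28 (SE 0.064, adjusted p = 0.00328 in edgeR). Without morphine library 2 the value was 0.24 with an edgeR adjusted p of 0.0532. Markers of endothelial cells, the third class by Apod level, summed to 47.6 to 63.2 CPM in morphine and 73.5 to 79.9 CPM in mock libraries, and 5 of 12 fell.

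Il33, at chromosome 19, 29925114 to 29960718, had 159.9, 165 and 150.5 CPM in morphine libraries, against 133, 134 and 138 CPM in mock libraries. The mock libraries lay within 2.97 CPM (SD) of their mean of 135 CPM, and the groups did not overlap. The log2 fold change was 0.21 (SE 0.057, edgeR adjusted p = 0.0118). This was the smallest of the called changes, and it missed the threshold with upper quartile scaling (0.16, edgeR adjusted p = 0.0504) and without morphine library 1, morphine library 2 or mock library 1 (0.20 to 0.21, highest adjusted p = 0.0986).

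Aspa and Car2, enzymes of N-acetylaspartate breakdown and of carbon dioxide hydration, fell. Aspa, at chromosome 11, 73304992 to 73329596, had 304, 274 and 265 CPM in morphine libraries, against 410.4, 388 and 401 CPM in mock libraries, a fall by 0.53 on the log2 scale (SE 0.056, edgeR adjusted p = 4.26e-07). Car2, at chromosome 3, 14886273 to 14900770, had 238, 218 and 210.0 CPM in morphine libraries, against 327, 303 and 315 CPM in mock libraries. It fell by 0.52 (SE 0.057, edgeR adjusted p = 5.67e-07). For both genes every morphine library was below every mock library by more than the spread within a group. They were called in every alternative, Aspa between -0.58 and -0.49 and Car2 between -0.57 and -0.48.

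Qdpr, at chromosome 5, 45434021 to 45450236, had 711, 703 and 677 CPM in morphine libraries, against 877, 739 and 1002 CPM in mock libraries. The morphine libraries were tight and the mock libraries wide, at 697 ± 17.7 and 873 ± 132 CPM (SD, n = 3 each). Qdpr fell by 0.34 on the log2 scale (SE 0.070, edgeR adjusted p = 0.00137). Its exons overlap those of the antisense gene Gm42413 by 332 bases, and the strand of counting is not given in the sources used here, so reads of the pair cannot be told apart.

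Cryab, at chromosome 9, 50751325 to 50756636, had 446, 469 and 452 CPM in morphine libraries, against 565, 513 and 549 CPM in mock libraries, with no overlap. It fell by 0.27 (SE 0.051, edgeR adjusted p = 0.000567). Its exons share 252 bases with Hspb2, another small heat shock gene on the other strand, with the same limit. The other 8 members share no exon with another gene in this annotation.

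Grb14, S100b and Klk6 did not pass the test. Grb14, at chromosome 2, 64912476 to 65024987, had 139, 136 and 135 CPM in morphine libraries, against 123, 106 and 133 CPM in mock libraries (log2 0.16, SE 0.066, edgeR adjusted p = 0.126). These groups did not overlap, and without mock library 3 Grb14 was called at 0.24 (edgeR adjusted p = 0.0306). S100b, at chromosome 10, 76253853 to 76261159, had 80.3, 89.5 and 81.3 CPM in morphine libraries, against 109, 64.5 and 104 CPM in mock libraries. Mock library 2 was below all others, and the other mock libraries were above all morphine libraries. The log2 fold change of S100b was -0.16 (SE 0.116, edgeR adjusted p = 0.445), and without mock library 2 it was -0.35 (edgeR adjusted p = 2.63e-05).

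Klk6, at chromosome 7, 43824499 to 43832030, had 96.2, 137 and 106 CPM in morphine libraries, against 150.5, 77.6 and 109 CPM in mock libraries (log2 -0.01, SE 0.147, edgeR adjusted p = 0.973). Its groups overlapped fully, and its SE was the largest of the 10. Mock library 2 was the lowest of the 6 for Klk6, S100b, Apod, Ptgds and Grb14, and it was also the shallowest. The part of depth in these values was not tested. DESeq2 called the same 7 members in the same directions, with 13% of all genes called. The authors' deposited table gave the same split, with 3 members up and 4 down at an adjusted p under 0.05 and log2 fold changes of 0.63 for Ptgds and -0.49 for Aspa.

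**Figure D3:**
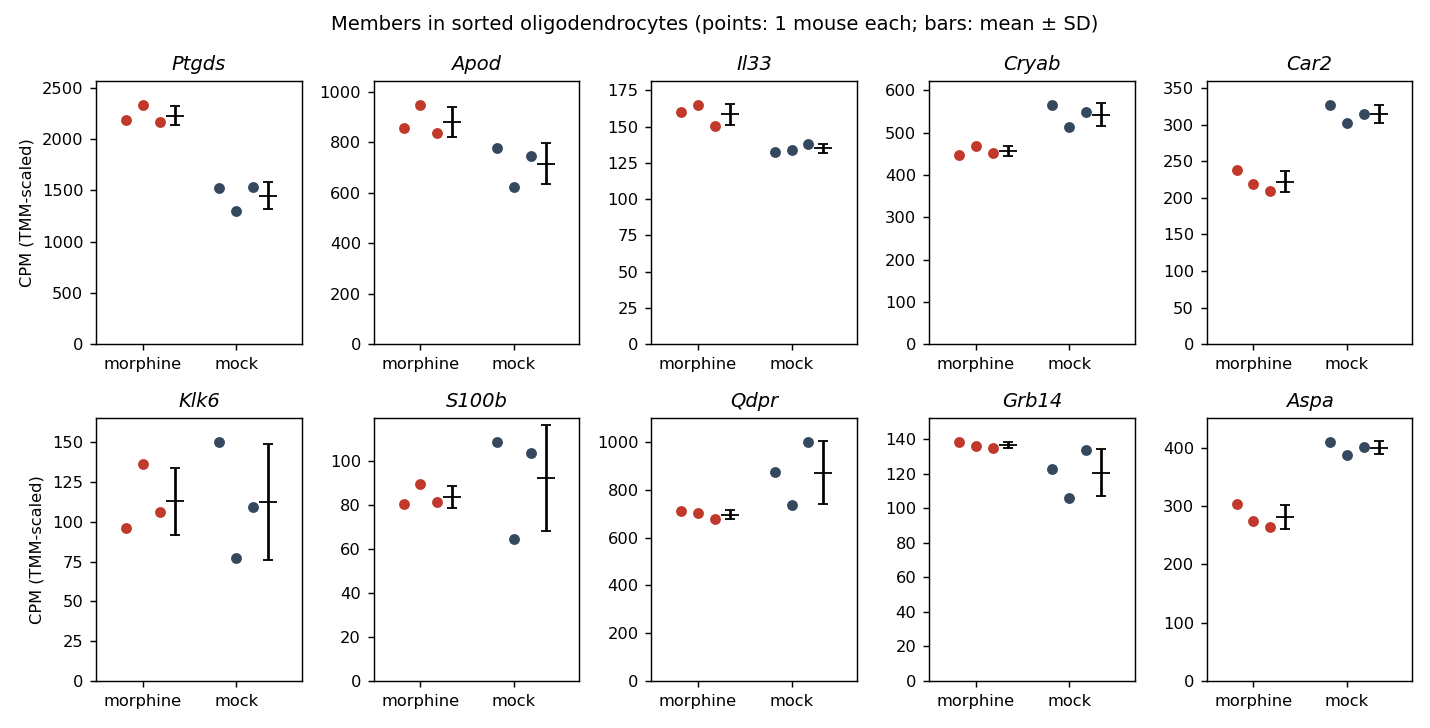
TMM-scaled CPM of the 10 members in sorted oligodendrocytes, 1 point per mouse, with morphine (red) left of mock (dark blue) and bars for mean ± SD of 3 mice. Ptgds, Apod and Il33 lie higher and Cryab, Car2, Qdpr and Aspa lower in morphine libraries, and mock library 2 is the lowest point for S100b and Klk6.

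Per kilobase of exon, the level of Ptgds in sorted cells was 1352 ± 54.6 CPM in morphine and 878 ± 79.7 CPM in mock libraries, the highest of the members. Qdpr followed at 389.8 ± 9.88 CPM per kilobase in morphine and 488 ± 73.7 in mock libraries, then Apod at 342 ± 23.0 in morphine and 278 ± 31.9 in mock libraries. Cryab stood at 308 ± 8.23 CPM per kilobase in morphine and 367 ± 17.9 in mock libraries, so that the mean of Apod was above that of Cryab in morphine libraries and below it in mock libraries. Grb14 was the lowest, at 19.0 ± 0.254 CPM per kilobase in morphine and 16.8 ± 1.93 in mock libraries.

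The other genes of the members' pathways and states came to 101 tested genes, of which 11 rose and 14 fell (24.8%), against 14.8% of all genes called. These lists too were chosen with earlier results of these data known, so the shares are a description only. Of 12 genes of prostaglandin D2 synthesis, breakdown and receptors, 9 were tested, 0 rose and 2 fell. Pla2g4a, the phospholipase that frees arachidonic acid, had 35.4, 35.4 and 31.0 CPM in morphine libraries, against 57.7, 56.6 and 49.6 CPM in mock libraries (log2 -0.71), and Ptges3, a cochaperone also named as a prostaglandin E synthase, changed by -0.42. The median of the 9 was -0.21, against -0.02 over all genes.

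Of 12 lipocalins, apolipoproteins and their lipid partners, 8 were tested, 2 rose and 0 fell. Both were lipid transporters, Abca2 at 1855 ± 60.5 CPM in morphine and 1489 ± 52.0 CPM in mock libraries (log2 0.30) and Abca1 at log2 0.36. Among 9 genes of the IL-33 receptor and its signalling, all tested, 1 rose, the kinase Irak1 (0.37), and 0 fell. Of 10 small heat shock proteins and their regulators, 7 were tested, and only the cochaperone Bag3 was called, at 6.84, 6.76 and 7.41 CPM in morphine libraries, against 11.98, 9.48 and 12.4 CPM in mock libraries (log2 -0.71).

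Of 16 carbonic anhydrases and acid-base transporters, 13 were tested, 2 rose and 1 fell. The membrane-bound anhydrase Car14 fell with Car2, by 0.42, while the anion exchanger Slc4a2 was among those that rose (0.31). Of 12 genes of N-acetylaspartate and acetate use, all tested, 2 rose and 1 fell. Acaca, which makes malonyl-CoA for fatty acid synthesis, had 169, 179.6 and 168 CPM in morphine libraries, against 102, 90.9 and 108 CPM in mock libraries (log2 0.77), and the acylase Acy3 rose by 0.67. Folh1, a peptidase that frees N-acetylaspartate, fell by 0.46.

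Of 13 kallikreins, protease receptors and serpins, 6 were tested. Plat, tissue plasminogen activator, had 57.9 ± 2.09 CPM in morphine and 28.5 ± 0.930 CPM in mock libraries (log2 1.00), Serpina3n rose by 1.32 at low counts, and Serpinb1a fell by 0.76. Of 15 genes of the insulin receptor and its adaptors, 13 were tested. Pik3ca, a catalytic subunit of phosphoinositide 3-kinase, rose (0.22), and the adaptor Irs1 and the receptor Igf1r fell (-0.51 and -0.24). No gene was called among 6 tested S100 proteins, where S100a16 came closest (-0.15, edgeR adjusted p = 0.271), or among 4 tested genes of tetrahydrobiopterin synthesis. Both lists also had 0 genes at an unadjusted p under 0.05.

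Of 14 other genes of mature oligodendrocyte states, all tested, 1 rose and 6 fell (median -0.03), against 14.8% of all genes called in either direction. The 3 of smallest p were Ctps, a nucleotide synthase at 32.1 ± 2.96 CPM in morphine and 56.8 ± 2.38 CPM in mock libraries (log2 -0.84), the noncoding RNA Neat1 (-0.46) and Sec11c, a subunit of the signal peptidase (-0.54). Of these, Ctps was lower and Sec11c higher in the accumbens Klk6 cells.

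The second comparison asked for the same members in oligodendrocytes of the nucleus accumbens. Levels of whole oligodendrocyte pools here and in the age comparison are TMM-scaled CPM. Levels set against other classes, and those of cells split by a Klk6 UMI, are plain CPM. Values for the same pool therefore differ between these scales. No gene of 9382 tested was called (0% called) by the quasi-likelihood test of edgeR, and 387 genes (4.12%) had an unadjusted p under 0.05; DESeq2 called 22 genes (0.234%) and 0 members. Aspa and Car2, 2 of the 10 members, were among the 387. In simulated counts of this size the same test recovered 4.48% of genes changed by 0.5 on the log2 scale, against 62.7% in the sorted cells. The changed genes were drawn at random from all but the lowest by mean level, without a pool number effect. These shares are therefore not those of the members.

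Aspa had 400.0, 436, 445 and 444 CPM in morphine pools 1 to 4, against 519.8, 527, 622 and 584 CPM in mock pools 1 to 4. Every morphine pool was below every mock pool. The means were 431 ± 21.1 CPM in morphine and 563 ± 48.4 CPM in mock pools (SD, n = 4 each), with a log2 fold change of -0.39 (SE 0.135, unadjusted p = 0.0117, adjusted p = 0.977 in edgeR). At 1000 UMIs per cell, Aspa was seen in 30.3% to 36.8% of oligodendrocytes in morphine pools and in 41.2% to 46.5% in mock pools, again without overlap, and in at most 0.762% of medium spiny neurons.

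Car2 had 3299, 3574, 2699 and 3244 CPM in morphine pools, against 3636, 4811, 3981 and 4505 CPM in mock pools, and the groups did not overlap. Its log2 fold change was -0.41 (SE 0.155, unadjusted p = 0.0204 in edgeR). Cryab had 2623, 2811, 2742 and 2423 CPM in morphine pools, against 2993, 3549.6, 2877 and 2959 CPM in mock pools, a difference of -0.23 (SE 0.145). Aspa, Car2 and Cryab were the 3 members without overlap, against 2.66% of all genes. Qdpr overlapped, at 1611 ± 174 CPM in morphine and 1844 ± 247 CPM in mock pools (log2 -0.20, SE 0.152), but was lower in morphine within each of the 4 pool numbers.

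Ptgds had 8329.9, 16461, 12724 and 11218 CPM in morphine pools, against 4712, 10978, 10355 and 9821 CPM in mock pools. Pools with the same number lay together, low for number 1 and high for number 2, and the morphine pool was the higher in 4 of 4 numbers. The log2 fold change was 0.44 (SE 0.255, edgeR unadjusted p = 0.108), and it was 0.23 without mock pool 1 and 0.26 without morphine pool 2. Apod was also higher in 4 of 4 numbers, at 5596 ± 1042 CPM in morphine and 4929 ± 1192 CPM in mock pools (log2 0.18, SE 0.194).

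Same-numbered pools deviated together across genes, with correlations of 0.17 to 0.43 between their deviations from the group means. With the pool number as a block, edgeR called 100 genes (1.07%), of which 2 were members. Ptgds rose by 0.47 (SE 0.106, edgeR adjusted p = 0.0289) and Car2 fell by 0.41 (SE 0.098, edgeR adjusted p = 0.0411), while Aspa at -0.39 had an edgeR adjusted p of 0.0535. These were the lowest adjusted p-values of the 3 genes over all alternatives, and the highest were 1.00. Ptgds was higher in morphine in all 10 of the other classes in which it could be tested, with a median log2 of 0.65. These classes include newly formed oligodendrocytes, as well as medium spiny neurons, where the mean of Ptgds was 71.5-fold lower than in oligodendrocytes. In medium spiny neurons Ptgds had 162, 315, 207 and 45.8 CPM in morphine pools 1 to 4, against 84.7, 207, 116 and 38.8 CPM in mock pools 1 to 4. The part of free RNA in either was not tested. Morphine pool 1, which held 31 of the 37 choroid plexus cells, had the lowest Ptgds of the morphine pools in oligodendrocytes, at 8329.9 CPM. Leaving it out therefore raises the difference, to 0.59, whatever those cells contribute. The part of choroid plexus RNA was not tested.

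Il33 differed more between pools than between treatments. It had 360.0, 586, 391.6 and 949 CPM in morphine pools, against 199, 865, 301 and 919 CPM in mock pools (log2 -0.01, SE 0.412). Pools 2 and 4, deposited with 6000 barcodes, averaged 830.0 ± 166 CPM and pools 1 and 3, with 3000 barcodes, 313 ± 84.7 CPM (SD, n = 4 each), without overlap, and each treatment has 2 of each kind. Within the pools of 3000 barcodes the morphine difference of Il33 was 0.57, and within those of 6000 it was -0.22. A difference of the size seen in sorted cells was not detectable against this spread.

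Klk6 had 129, 216, 149 and 124 CPM in morphine pools, against 88.2, 192, 109 and 227 CPM in mock pools (log2 -0.01, SE 0.265). S100b had 354 ± 53.7 CPM in morphine and 359 ± 93.9 CPM in mock pools (log2 -0.03, SE 0.191), and Grb14 1218 ± 214 CPM in morphine and 1209.7 ± 316 CPM in mock pools (log2 0.00, SE 0.195). The morphine and mock pools overlapped for all 3. The share of oligodendrocytes with a Klk6 UMI at 1000 UMIs was 7.88% ± 1.69 in morphine and 8.30% ± 2.29 in mock pools (SD, n = 4 each, two-sided exact permutation p = 0.914). This permutation test took no account of the pool number. In the order of the pool numbers, the shares were 7.12%, 10.3%, 7.67% and 6.43% in morphine pools, against 5.70%, 10.2%, 7.06% and 10.3% in mock pools. Within the cells that held a Klk6 UMI, Aspa stood at 398 to 511 CPM in morphine and 568 to 702 CPM in mock pools, and within the other oligodendrocytes at 398 to 440 CPM in morphine and 549 to 578 CPM in mock pools, so the groups did not overlap in either set of cells. Without the Klk6 cells, a fit added after seeing the data, the differences were -0.40 for Aspa and -0.41 for Car2.

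No gene of the members' pathway lists was called in accumbens oligodendrocytes, and 5 of 77 tested (6.49%) had an unadjusted p under 0.05 in edgeR, against 4.12% of all genes. Acaca stood 0.93 higher (SE 0.295), Pla2g4a at -0.74 (SE 0.264) and Serpinb1a at -0.47 (SE 0.170), each with the sign it had in sorted cells. Among the state genes, Nkx2-9, a transcription factor gene of the Klk6 state, stood at -0.91 (SE 0.353) and Cdkn1c, a cell cycle inhibitor, at 0.64 (SE 0.230). Nkx2-9 had fallen in sorted cells as well, by 1.22. These 5 genes are named because of their values in the accumbens.

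Between the sorted cells and the accumbens, which share no mice, 9 of 10 members had a fold change of the same sign, against 58.2% of 8774 genes tested in both. Il33 was the exception, and Klk6, S100b and Grb14 were within 0.03 of 0 in the accumbens. Since the members were chosen with earlier results of these data known, this count is a description only.

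**Figure D4:**
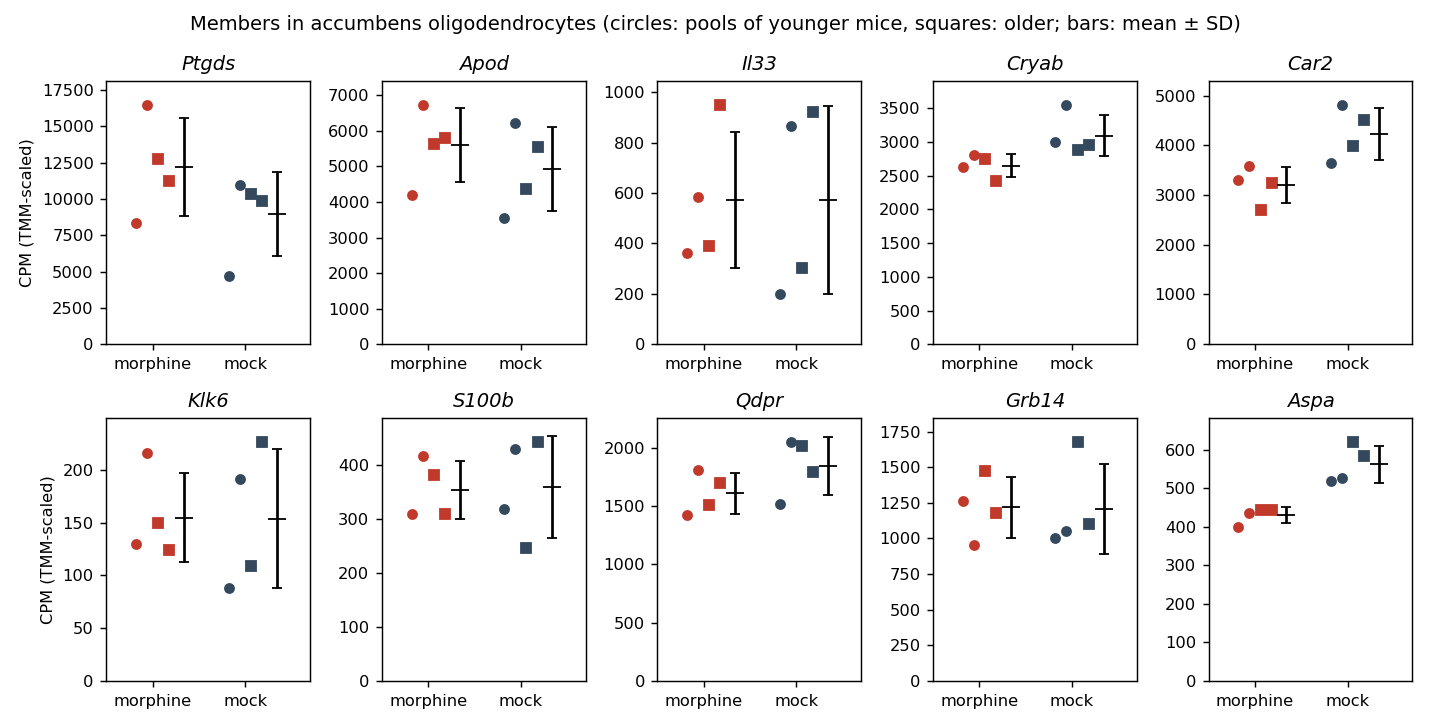
TMM-scaled CPM of the 10 members in accumbens oligodendrocytes, 1 point per pool, with morphine (red) left of mock (dark blue), circles for pools of younger and squares for pools of older mice, and bars for mean ± SD of 4 pools. Aspa, Car2 and Cryab lie lower in every morphine pool, and Il33 splits within each treatment between 199 and 949 CPM.

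**Figure D5:**
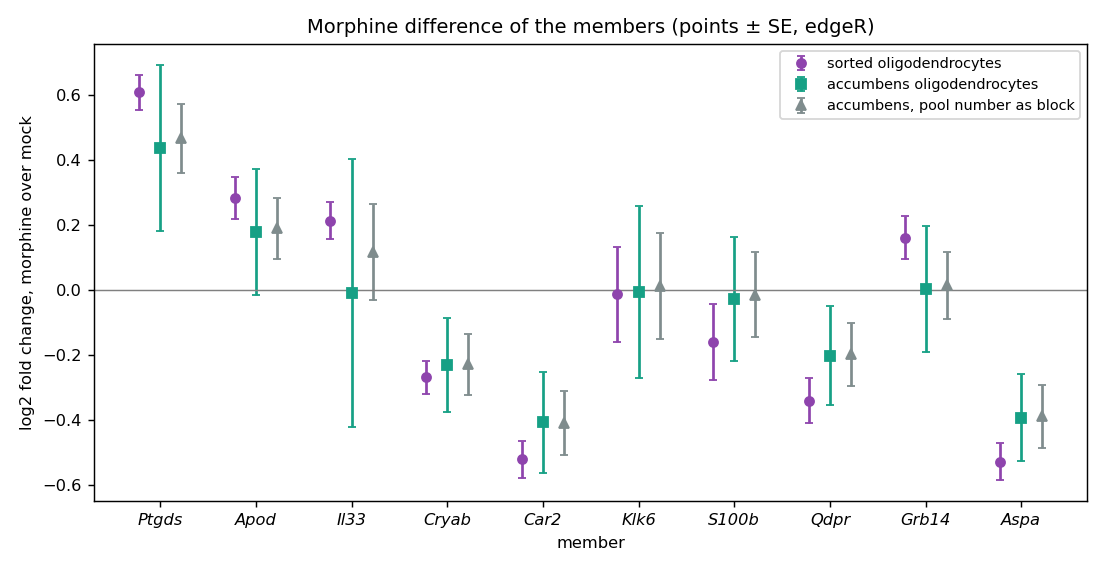
Log2 fold change of each member, morphine over mock, with SE bars, in sorted oligodendrocytes (circles), accumbens oligodendrocytes (squares) and accumbens oligodendrocytes with the pool number as a block (triangles). Ptgds and Apod lie above 0 and Cryab, Car2, Qdpr and Aspa below 0 in all 3 fits, and Il33 is above 0 in sorted cells at 0.21 and at -0.01 in the accumbens.

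The third comparison covered the 11 other accumbens classes with enough cells. None of 56 pairs of a member and a class was called by edgeR, and 3 had an unadjusted p under 0.05; DESeq2 called none and had 2 under 0.05. The 3 were Ptgds in astrocytes (log2 0.89, SE 0.386), Qdpr in microglia (-0.93, SE 0.339) and Grb14 in medium spiny neurons (0.44, SE 0.184). The share of all genes called was 0.0225% in astrocytes and 0% in each of the 10 other classes. With the pool number as a block, Ptgds in astrocytes was called (0.86, SE 0.132, edgeR adjusted p = 0.000672), where 0.292% of genes were, and it was also called without a filter on low counts, where 0.0856% were. Without morphine pool 2 its difference was 0.34. Ptgds averaged 10519 CPM in oligodendrocytes and 265 ± 188 CPM in astrocytes. The astrocyte pools overlapped those of microglia, the next class, at 233 ± 121 CPM. Medium spiny neurons had 147 ± 94.5 CPM of Ptgds. Ptgds was higher in morphine in all 10 other classes tested, and the part of free RNA in the astrocyte difference was not tested. Il33, tested in 2 other classes, was lower in both without a call, and Klk6 was too low for a test outside oligodendrocytes.

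The fourth comparison, of age, set the 4 older pools, of 78 to 82 days, against the 4 younger ones, of 37 to 45 days, with treatment in the fit. No member and no gene was called (0% called) by edgeR, and 0 members but 1350 genes had an unadjusted p under 0.05. The differences ran from -0.16 for Cryab to 0.31 for Grb14, with SEs of 0.121 to 0.409. Grb14 stood at 1358 ± 268 CPM in older and 1069 ± 134 CPM in younger pools, and Cryab at 2750.3 ± 236 CPM in older and 2994 ± 399.8 CPM in younger pools (SD, n = 4 each). Neither difference passed the test.

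Whether the morphine difference depends on age was tested with a treatment by age term. No gene was called (0% called) by edgeR and 150 genes but 0 members had an unadjusted p under 0.05. The terms ran from -0.60 for Klk6 (SE 0.537) to 0.31 for Il33 (SE 0.863). In older pools alone the Ptgds difference was 0.24 (SE 0.234) and in younger pools alone 0.67 (SE 0.376), with a term of -0.42 (SE 0.53). Car2 had -0.52 in older and -0.29 in younger pools and Aspa -0.45 in older and -0.32 in younger pools, each with its sign kept at both ages.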

How the data were processed

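The authors' deposited tables were used. The sorted-cell table held raw read counts per gene, deposited by the authors, and the accumbens tables raw UMI counts per gene and barcode, per the file headers. STAR 2.4.2a, Trimmomatic 0.36, HTSeq, DESeq, DESeq2 and the build mm10 are named for the series, without a role, per the submitters' processing notes. Log2 fold changes, their errors and p-values of the authors' deposited table were copied as given.

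In the sorted libraries, 69.5% to 74.3% of reads were in rows that name no gene and were left out. Of the barcodes, those under 300 genes or above 20% mitochondrial UMIs were dropped. A class needed a marker score of at least 0.25, a lead of 0.1 and 3 detected markers, over 18 marker lists without any member, which placed 79.9% of the barcodes kept. A class was fitted where 3 pools a group had at least 10 cells. No doublet caller was run. Gene symbols found only in the tables of replicate number 1 (6120, with 0.777% of their UMIs) were left out. UMIs were summed per pool and class, since cells are not replicates.

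Counts were tested with edgeR 4.0.16 in R 4.3.3 (TMM, filterByExpr, quasi-likelihood, Benjamini-Hochberg over all genes tested, threshold 0.05), with DESeq2 1.42.0, other filters, scalings, gates, covariates and left-out libraries as alternatives. The tests were tested on simulated data. Python 3.11.15, numpy 2.4.6, pandas 2.3.3 and scipy 1.17.1 did the rest. All 10 members were named in every comparison. Of each pathway list at most the 3 called genes of smallest p in sorted cells were named, and some results that this rule covers are not reported here. For likeness, 2 genes per member with at least 50 CPM in a class were named. The members and lists were chosen with earlier results of these data known.

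Accumbens pool numbers were taken to pair the samples. Same-numbered pools had matched ages but no shared animals, and their deviations correlated at 0.33, 0.17, 0.42 and 0.43 for numbers 1 to 4. The columns of the sorted-cell table give each library's treatment, and their numbers are used as names only, so no pairing was fitted there. Sorted libraries came from separate mice and pools from separate pairs of mice, per the labels. Counting error alone limits a class of few UMIs.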

Additional observations from a re-analysis of the deposited data

Results flagged for a closer look

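Among 40 sets of 4 pools (each member's CPM and thinned share in each treatment), 2 had a pool far from the others, and chance flags about 1 in 20 such sets. The share of thinned oligodendrocytes with an S100b UMI was lowest in mock pool 3, at 14.7%. Grb14 was highest in the same pool, at 1679.9 CPM, where the other mock pools had 1004 to 1099 CPM.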

How the results depend on the processing

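The 7 members called in sorted oligodendrocytes kept their direction in every alternative, and leaving out 1 library gave 5 to 8 called. In accumbens oligodendrocytes the replicate block gave 2 called members, against 0. In the other classes it gave 1, as did no filter on low counts, against 0. Leaving out 1 pool gave 0 to 0 in each accumbens comparison. The block changed no other call. It was not run in the sorted cells, whose columns carry no number that the labels fix.

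Sign changes were found among members without a call. Klk6 in sorted cells was 0.0006 without a filter, and -0.21 to 0.26 without 1 library. In accumbens oligodendrocytes, Il33 turned to 0.0058 in DESeq2, 0.1175 with the replicate block and 0.1286 in older pools. With alternatives chosen after seeing the data it was 0.5721 in pools of 3000 barcodes, 0.1574 with barcode number as a covariate and 0.1387 with age added. Klk6 was 0.0095 in DESeq2, 0.0125 with the replicate block and 0.2814 in younger pools, and with those added alternatives 0.4817, 0.0633 and 0.0456. S100b was 0.0010 in older pools, 0.2799 in pools of 3000 barcodes, 0.0002 with the barcode covariate and 0.1083 without Klk6 cells. Grb14 was -0.0124 with a stricter gate, -0.0722 in older pools, -0.0084 in pools of 6000 barcodes and -0.0060 without Klk6 cells. Without 1 pool, Il33 ran from -0.35 to 0.29, Klk6 from -0.22 to 0.21, S100b from -0.1553 to 0.0734, Grb14 from -0.10 to 0.22, and the age difference of Il33 from -0.0236 to 0.8571. Il33, called in sorted cells, kept its sign at 0.16 with upper quartile scaling but missed the threshold. The cause was not tested.

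In simulated counts of the accumbens size, 4.48% of genes changed by 0.5 on the log2 scale were recovered, 73.1% of those changed by 1 and 98.5% of those changed by 2. In the sorted set these were 62.7%, 91.0% and 100%. The changed genes were drawn at random, not from the members, and no pool number effect was simulated.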

Other observations

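Cdkn1c was named after its values were seen. The oligodendrocytes without a Klk6 UMI had 19.4 to 32.6 CPM in morphine pools and 6.76 to 11.4 CPM of it in mock pools, which did not overlap. The cells with a Klk6 UMI had 78.7 to 114 CPM in morphine and 67.8 to 114 CPM in mock pools, on 73 and 74 UMIs. The log2 ratio of Klk6 cells over the others was 1.34 to 2.18 in morphine pools and 3.15 to 3.40 in mock pools. Nkx2-9, seen alongside it, showed its difference within the Klk6 cells, on 29 UMIs in morphine and 63 in mock pools. It had 10.3 to 54.5 CPM in morphine and 71.7 to 136 CPM in mock pools, and the lowest value rests on 1 UMI, in morphine pool 1. Both genes were picked by their values, so these ranges are a description only. No test was made of either difference.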
